A study of Homo sapiens with 12 samples.

Results

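The unedited cells of 2 knockout experiments were compared: the wild type libraries sequenced beside a CLEC16A knockout, called C16 wild type here, and those sequenced beside an NKX2-2 knockout, called N2 wild type. Members were the 3 wild type columns of each experiment, chosen by sample title, which gave 6 of the 12 libraries of the series. All were bulk RNA-seq libraries of islet-like cells made from expandable pancreatic progenitors (ePPs), a self-renewing progenitor stage derived from the human embryonic stem cell line MEL1. The progenitors had been kept on feeder cells with growth factors, the ALK5 inhibitor 616452 and the BET inhibitor I-BET151, and the islet-like cells were collected on day 8 in the medium R6. That medium, shared by every group, contained zinc sulfate (10 µM), 616452 (10 µM), the thyroid hormone T3 (1 µM), the BMP receptor inhibitor LDN-193189 (0.2 µM), the gamma-secretase inhibitor Compound E (0.2 µM), vitamin C (0.5 mM), forskolin (10 µM) and heparin. The labels name no clone and no differentiation batch, so sequencing run, culture history and cell line could not be told apart between the wild types. Nor is it stated that the replicates of a group are independent cultures. The tests below therefore weigh a difference against library-to-library scatter that may be only technical.

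Pancreatic islets hold beta cells that secrete insulin, alpha cells that secrete glucagon, delta cells that secrete somatostatin, and rarer cells that secrete pancreatic polypeptide or ghrelin. During development endocrine cells arise from progenitors that briefly switch on NEUROG3, and stem cell protocols are known to yield, beside islet cells, serotonin-producing enterochromaffin-like cells and remnants of gut, liver, duct or mesenchyme fate. Bulk RNA-seq averages over all of these, so fewer cells of a type and less RNA per cell cannot be told apart in any value below.

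Total counts ran from 31364272 to 32965728 per library in C16 wild type and from 18017311 to 20649976 in N2 wild type, so values of the second group rest on fewer reads. The tables of the experiments were not built alike. Listed TPM values added up to 99.68% to 99.72% of their full scale in C16 wild type and to 41.45% to 45.47% in N2 wild type, and the 37 mitochondrial DNA genes had no counts in the first and 7.054% to 8.021% of counts in the second. TPM (a level per transcript length, scaled to a fixed total per library) was therefore rescaled to the same total over the 60383 genes kept in both, and levels below are rescaled TPM. Mitochondrial genes were left out, as were 204 of 11020 assessed genes whose N2 wild type counts were at least 4 times short of their TPM. Among those were CHGA (chromogranin A), SCG5, MYT1 and HLA-E, and 57 lay on chromosome 6. By the median absolute log2 difference over genes, N2 wild type library 3 stood 0.223 to 0.225 from its replicates, which were 0.125 from each other, while libraries of different groups stood 0.372 to 0.483 apart. In C16 wild type these distances were 0.112 to 0.153.

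By TPM insulin was the most abundant transcript in the mean of the 6 libraries. INS stood at 17930, 22900 and 19020 TPM in C16 wild type and at 8599, 8959 and 11860 TPM in N2 wild type, which was 1.79% to 2.29% and 0.860% to 1.19% of all rescaled TPM. By TPM the groups did not overlap and differed by 1.03 on the log2(TPM + 1) scale. By counts they overlapped and were within 2-fold: the log2 difference, always given as C16 minus N2 wild type, was -0.13 (95% interval -0.46 to 0.19). INS counts were low for its TPM in both tables, at 0.128 and 0.250 of those of the median gene per TPM and kilobase, and INS overlaps a read-through gene with IGF2, so the size of its difference was not settled by these files. Next among the most abundant genes came EEF1A1 (translation elongation), APOE, IGF2, ACTB, TTR (transthyretin, abundant in alpha cells and liver) and GAPDH.

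By TPM glucagon was the second islet hormone. By share of counts, which are not scaled to transcript length, the order was reversed. INS counts were also low per TPM and kilobase, as given above, so the order by counts is not settled. GCG held 0.209% to 0.217% of counts in C16 and 0.133% to 0.158% in N2 wild type. INS held 0.060% to 0.076% and 0.059% to 0.089%. GCG was at 3684, 3612 and 3758 TPM in C16 wild type and at 2446, 2410 and 2605 TPM in N2 wild type, so the groups did not overlap. The count difference of 0.47 (SE 0.091, edgeR quasi-likelihood adjusted p = 0.000726) was both past the test and within 2-fold. SST, the delta cell hormone, was at 324, 362 and 318 TPM against 71.5, 76.7 and 99.4 TPM. That was 3.73-fold higher in C16 wild type by counts (log2 difference 1.90, SE 0.138, edgeR adjusted p = 1.329e-07). PPY, pancreatic polypeptide, was likewise higher there, at 54.8 ± 4.13 against 18.9 ± 4.25 TPM (SD, n = 3), with a log2 difference of 1.43. GHRL, ghrelin, was at 55.1 ± 11.2 and 45.5 ± 3.59 TPM (SD, n = 3), overlapped, and was within 2-fold. IAPP, the amyloid peptide that mature beta cells co-secrete with insulin, was under 1 TPM in all 6 libraries, with a highest value of 0.969 TPM.

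Both wild types also made gut peptides. GAST, gastrin, was at 827, 953 and 950 TPM in C16 wild type and at 2293, 2270 and 2797 TPM in N2 wild type, the highest of the gut hormones measured, and was higher in N2 wild type (log2 difference -1.53). MLN (motilin, -1.78), NTS (neurotensin, -0.85) and GIP (-0.67) were higher in N2 wild type as well, at 13.8 to 50.7 against 34.8 to 73.8 TPM. PYY differed the other way, at 295 against 196 TPM (log2 difference 0.79). CCK and INSL5 did not reach the count filter. Among neuropeptide precursors, CRH was at 58.7 and 60.2 TPM and within 2-fold, while GAL (galanin, 1.44), VGF (1.42) and NPW (1.29) were higher in C16 wild type. CARTPT was at 0.722, 1.16 and 0.593 TPM in C16 wild type and at 12.8, 12.4 and 19.8 TPM in N2 wild type, a log2 difference of -4.23. TRH, at 0.086 and 4.00 TPM, had a difference of -3.60.

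**Figure D1:**
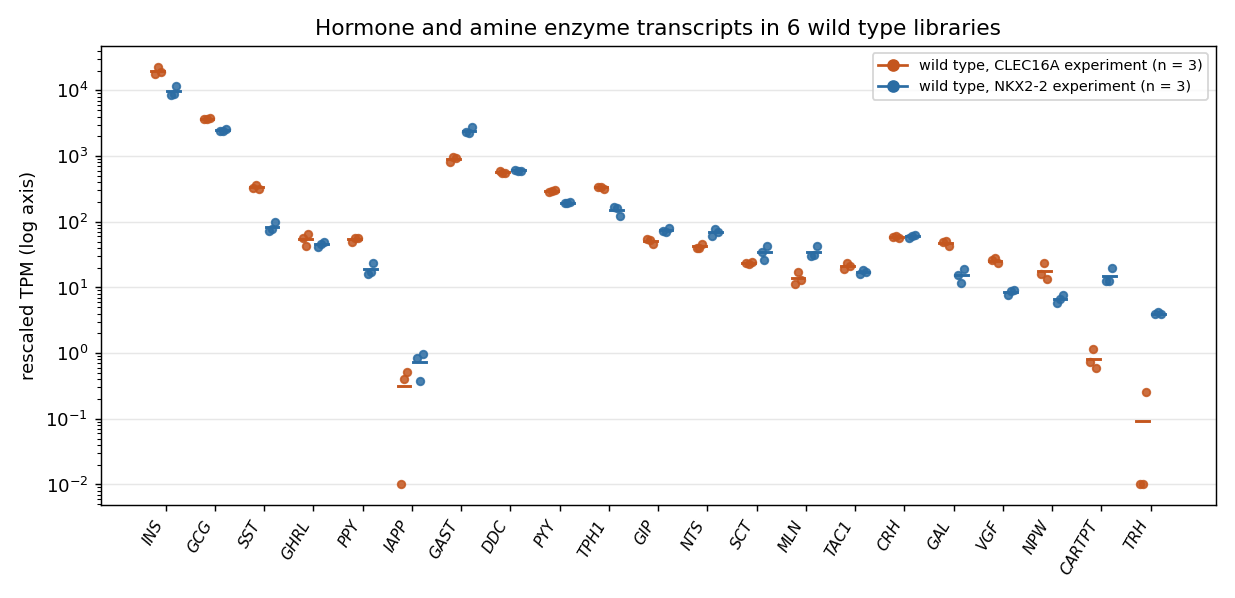
Rescaled TPM (log axis) of hormone, neuropeptide and amine enzyme genes in each wild type library. Points are libraries, bars are group means, and values under 0.01 are drawn at 0.01. INS is the highest in both groups, GCG and GAST are about level in the NKX2-2 experiment, SST, PPY and GAL sit higher in the CLEC16A experiment, and GAST, CARTPT and TRH sit higher in the NKX2-2 experiment.

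Over all genes, agreement was more frequent than difference of 2-fold or more. At 1 TPM or above in all 6 libraries were 14960 genes, 640 more were at that level in every C16 wild type library and no N2 wild type library, and 312 the reverse. Of 18797 genes tested on counts with edgeR's quasi-likelihood test, 51.6% had an adjusted p under 0.05 (26.0% higher in C16 and 25.7% higher in N2 wild type). Groups did not overlap for 60.6% of them. Past the test and at least 2-fold different were 18.1%, of which 2038 genes (10.8%) were higher in C16 and 1372 (7.3%) in N2 wild type. A separate test of agreement, 2 one-sided tests against a 2-fold difference, placed 62.9% within 2-fold. Agreement followed the level: 91.97% of genes at a mean of 100 CPM (counts scaled to library size) or more were within 2-fold, against 4.72% of those under 1 CPM. By gene type, 72.47% of protein-coding genes were within 2-fold, against 24.71% of antisense and 26.45% of lincRNA genes. In those noncoding types most 2-fold differences were higher in C16 wild type. That held for 290 antisense genes against 37 higher in N2 wild type, and for 217 against 60 lincRNA genes. Gene types were not matched for level. The strand setting of the counts is not stated, and its part in these differences was not tested.

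**Figure D2:**
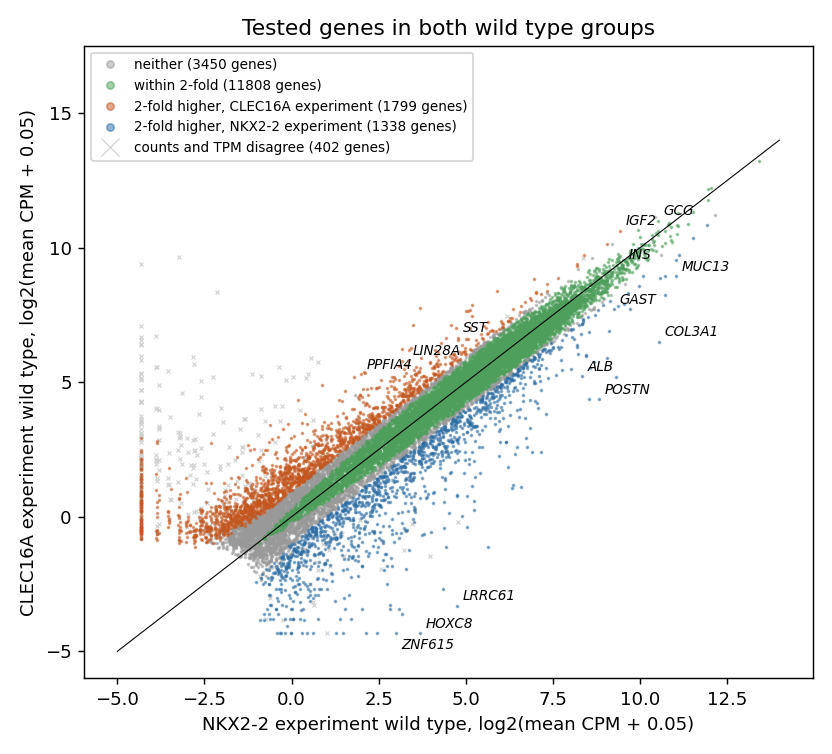
Mean CPM of each tested gene in both wild type groups on log2 axes (0.05 added), coloured by the outcome of the tests, with genes whose counts and TPM disagree as grey crosses. Most genes lie along the diagonal, and COL3A1, POSTN, ALB, LRRC61, ZNF615 and HOXC8 lie far below it.

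The knockout libraries sequenced beside these wild types gave a second comparison of the experiments, in which knockout effects also take part. Their counts were deposited together with those of the wild types, so a shortfall of counts in the NKX2-2 experiment can recur in it. Genes whose counts and TPM disagree, described below, were kept here. Of 19091 genes tested there, 29.9% were past the test and at least 2-fold different. By direction, 16.6% were higher in the CLEC16A and 13.3% in the NKX2-2 knockout. Among the 2038 genes higher in C16 wild type, 1844 could be tested between knockouts and 1119 were again 2-fold higher in the CLEC16A experiment, with 49 the opposite. Of the 1372 genes higher in N2 wild type, 677 of 1350 were again 2-fold higher in the NKX2-2 experiment and 193 the opposite. TPM, a second quantity from the same reads, moved at least 1 on the log2(TPM + 1) scale the same way for 1034 of the 2038 and 716 of the 1372. With 0.1 added in place of 1 these were 1672 and 1074, and TPM moved the opposite way for 75 and 22.

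Genes higher in C16 wild type lay more often near genes short of counts. Within 1 Mb of such a gene were 24.1% of the genes 2-fold higher in C16 wild type, 5.15% of those 2-fold higher in N2 wild type, and 8.31% of all tested genes. For a further 402 tested genes, counts and TPM disagreed at least 4 times in one of the tables. These genes, found after the data were seen, are left out of the lists below, G6PC2, HLA-C, DLL1 and TAP2 among them.

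Beta cell genes were read in both wild types. Of 30 tested, 25 were within 2-fold, where 62.9% of all tested genes were, and 84.98% of those at 10 to 100 CPM, so this share is near that of genes of such levels. Among the 30, 14 were higher in C16 and 2 in N2 wild type, beside 26.0% and 25.7% of all tested genes. The median log2 difference was 0.15 against 0.01 over all tested genes. NEUROD1 (256 and 230 TPM), MNX1 (284 and 225 TPM), RFX6 (155 and 150 TPM), SYT13 and the prohormone convertase PCSK2 (176 and 142 TPM) were not past the test and were within 2-fold. NKX6-1, which sets beta cell fate, was at 260, 277 and 256 TPM in C16 wild type and at 156, 163 and 133 TPM in N2 wild type, and its log2 difference of 0.65 (SE 0.075) was past the test and within 2-fold. PDX1 (0.57), ISL1 (0.39) and PAX6 (0.68) differed in the same way, and NKX2-2 by 0.27. At least 2-fold higher in C16 wild type were ABCC8, the sulfonylurea receptor subunit of the ATP-sensitive potassium channel (141 and 65.6 TPM), and DLK1. MAFA, a maturity factor, was low in both, at 6.58 and 3.02 TPM.

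Of 19 tested alpha cell genes 15 were within 2-fold, also near the share of all genes at 10 to 100 CPM, and their median was 0.06. CRYBA2, a crystallin gene read in alpha cells, was at 1320 and 1084 TPM, and RGS4 at 294 and 293 TPM. IRX2 was higher in C16 wild type (1.31). GC (281 and 754 TPM) and DPP4 (144 and 415 TPM) were higher in N2 wild type, and both are also made by liver or gut epithelium. In the delta cell list, SST and the delta cell factor HHEX (12.4 ± 1.13 and 3.18 ± 0.243 TPM, SD, n = 3, log2 difference 1.83) were higher in C16 wild type, while 5 members, LEPR and RBP4 among them, were higher in N2 wild type by less than 2-fold, so 8 of 11 were within 2-fold.

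Enterochromaffin-like genes were abundant in both wild types. FEV, a serotonin neuron factor also used by endocrine progenitors, was at 762, 704 and 731 TPM and at 624, 566 and 571 TPM, and was within 2-fold. DDC (574 and 605 TPM), LMX1A (142 and 141 TPM) and SLC18A1 (86.0 and 67.0 TPM) were also within 2-fold. TPH1, which makes the serotonin precursor, was at 341, 340 and 318 TPM against 165, 164 and 122 TPM, higher in C16 wild type by 0.98. In all, 12 of 14 of these genes were within 2-fold, near the 84.98% of all tested genes at 10 to 100 CPM.

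Of 22 tested endocrine progenitor genes, 17 were within 2-fold and 10 were higher in C16 wild type, beside 62.9% and 26.0% of all tested genes. NEUROG3, the switch of endocrine commitment, was at 21.3, 21.7 and 21.8 TPM in C16 wild type and at 12.0, 7.63 and 7.33 TPM in N2 wild type, a difference of 1.12 (SE 0.152, edgeR adjusted p = 3.695e-05). MLXIPL (1.26) and CBFA2T3 were higher there too, and BTBD17 (-0.91) was higher in N2 wild type. INSM1, at 652 and 674 TPM, was within 2-fold. Pancreatic progenitor factors were within 2-fold for 14 of 17, including FOXA2, GATA4, GATA6 and SOX9, and PTF1A did not reach the filter. Of all tested genes at 10 to 100 CPM, 84.98% were within 2-fold.

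Of 31 tested granule and secretion genes, 26 were within 2-fold, near the 84.98% of all tested genes at 10 to 100 CPM. All 31 were at 1 TPM or above in every library. CPE, which trims prohormones, was at 1244 and 1061 TPM, CHGB at 168 and 168 TPM, and SCG3 at 158 and 133 TPM. RPH3AL (1.85) and VGF were at least 2-fold higher in C16 wild type, and CADPS2 (-1.07) in N2 wild type. Ion channel genes were within 2-fold for 18 of 28, beside 62.9% of all tested genes and 84.98% of those at 10 to 100 CPM. Lists were not matched to other genes by level. KCNK16, an islet potassium channel, led that list at 412 and 347 TPM, KCNH6 was at 62.8 and 64.4 TPM, and the calcium channel subunit CACNA1A (100 and 31.8 TPM) and TRPM5 (7.20 and 1.58 TPM) were higher in C16 wild type. Of 34 tested monogenic diabetes genes, 29 were within 2-fold, also near the share of all genes at 10 to 100 CPM. Among receptors, GIPR (32.8 and 12.0 TPM, 1.18) and IGF1R (1.19) were higher in C16 wild type and VIPR1 (-1.84) in N2 wild type, while GLP1R was higher in C16 wild type (0.72) and within 2-fold.

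Proliferation was the list with the largest share within 2-fold: all 24 of 24 genes, with a median of -0.05. The shares were 62.9% of all tested genes and 84.98% of those at 10 to 100 CPM. PCNA was at 124, 131 and 116 TPM and at 124, 122 and 133 TPM. MKI67 was at 6.03, 5.29 and 5.25 TPM and at 6.49, 6.20 and 4.15 TPM. TOP2A, MCM3, CCNB1 and CDK1 overlapped between groups.

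**Figure D3:**
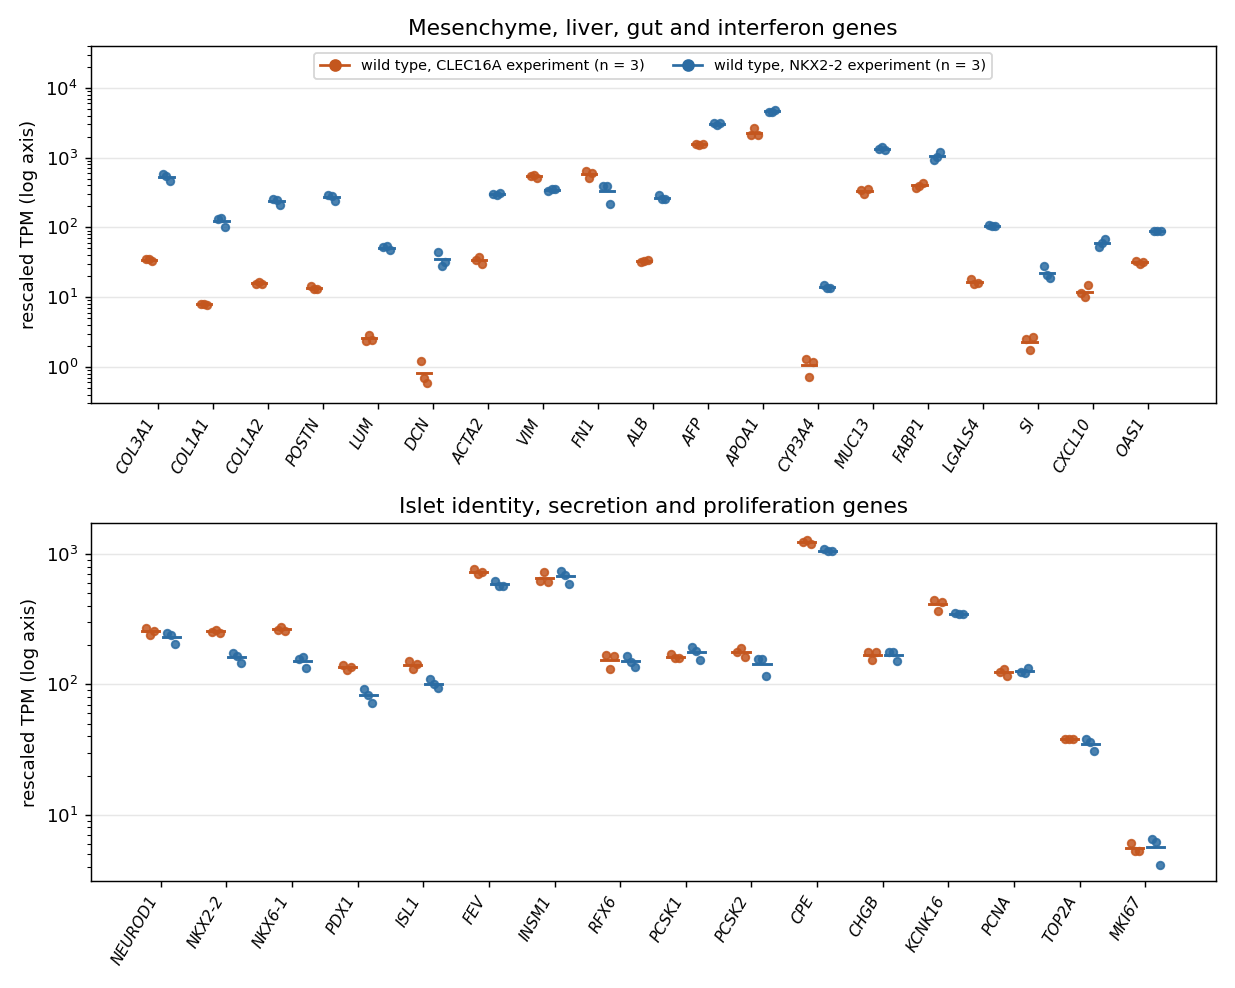
Rescaled TPM (log axis) of selected genes in each wild type library, points for libraries and bars for group means. The upper panel holds mesenchyme, liver, gut and interferon genes, where COL3A1 is at 33.1 to 35.2 TPM in one group and at 458 to 587 TPM in the other. Islet, secretion and proliferation genes in the lower panel are within 2-fold by counts.

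Mesenchyme genes were the list that differed most. Of 19 tested, 15 were higher in N2 wild type, 13 of them by 2-fold or more, and 2 were higher in C16 wild type, with a median of -2.78. Among all tested genes, 25.7% were higher in N2 wild type, 7.3% by 2-fold or more, and 26.0% were higher in C16 wild type. These shares also stand beside the lists that follow. COL3A1, a fibrillar collagen, was at 35.2, 35.1 and 33.1 TPM in C16 wild type and at 587, 540 and 458 TPM in N2 wild type, 16.5-fold apart by counts (log2 difference -4.05, SE 0.089, edgeR adjusted p = 6.591e-13). The matrix proteins POSTN (13.6 and 271 TPM, -4.46), COL1A1 (-4.15), LUM (-4.40) and DCN (0.827 and 34.7 TPM, -5.51), and the smooth muscle actin ACTA2 (-3.82), behaved alike. VIM (0.67) and FN1 (0.70), which epithelial and endocrine cultures also express, were higher in C16 wild type. The list summed to 1299 to 1414 TPM in C16 and 2323 to 2806 TPM in N2 wild type. Between the knockout groups its median was -4.99. In the endothelium and blood list 7 of 18 genes were tested and HBB and HBE1 had no count. Its summed TPM was carried by CD68, at 61.2 and 109.9 TPM but under 0.1 CPM in both groups, so that value cannot be read.

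Liver genes were higher in N2 wild type for 16 of 21 and in C16 wild type for 1, with a median of -0.72. For all tested genes these shares were 25.7% and 26.0%. ALB, albumin, was at 32.2, 32.7 and 34.0 TPM in C16 wild type and at 293, 254 and 255 TPM in N2 wild type, 8.71-fold by counts (log2 difference -3.12). AFP, its fetal relative, was abundant in both, at 1550, 1530 and 1580 TPM against 3110, 2953 and 3125 TPM. APOA1 (-1.41), CPS1 of the urea cycle (-1.81), APOH (-2.19) and the drug-metabolising CYP3A4 (1.05 and 14.1 TPM, -3.87) were higher in N2 wild type too, while HNF4A (95 and 96.6 TPM) was within 2-fold. Between the knockout groups the median of the list was -0.06.

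Gut epithelium followed the same direction. In the intestine and stomach list 10 of 19 genes were higher in N2 wild type, 8 of them by 2-fold or more, against 1 in C16 wild type, with a median of -0.86. Over all tested genes 25.7% were higher in N2 wild type, 7.3% by 2-fold or more, and 26.0% in C16 wild type. The mucin MUC13 was at 347, 303 and 361 TPM and at 1346, 1410 and 1277 TPM (log2 difference -2.10). FABP1 (-1.54) and FABP2 (-2.35), which carry fatty acids in enterocytes, LGALS4 (-2.74) and the brush border enzyme SI (2.30 and 22.4 TPM, -3.37) stood higher in N2 wild type, whereas the intestinal factor CDX2 was at 94.4 and 97.3 TPM and within 2-fold. Of 24 duct genes, 15 were higher in N2 and 4 in C16 wild type, and the largest difference was in S100A14 (34.9 and 232 TPM, -2.83). The duct median was -0.40, but 0.43 between the knockout groups. The keratins KRT8, KRT18 and KRT19, at 456 to 1245 TPM, were past the test and within 2-fold. Acinar genes were scarce: 12 of 25 were tested, and SPINK1 and PRSS2 were the only ones above 100 TPM in both groups.

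Interferon and inflammatory genes were higher in N2 wild type. In the interferon list 16 of 24 tested genes were, 11 of them by 2-fold or more, and 4 were higher in C16 wild type, with a median of -0.88 by counts and -0.69 on the log2(TPM + 1) scale (all tested genes 0.13 on that scale). Over all tested genes 25.7% were higher in N2 wild type, 7.3% by 2-fold or more, and 26.0% in C16 wild type. The chemokine CXCL10 was at 11.3, 9.91 and 14.7 TPM and at 52.0, 59.8 and 67.1 TPM (-2.44), and the antiviral OAS1 at 31.6 ± 1.99 and 87.8 ± 0.55 TPM (SD, n = 3). ISG15, IFI6 and IFIT1 of the same list were within 2-fold. B2M had a count difference of 1.21 but stood at 586 and 573 TPM. In the NF-kB list 12 of 21 were higher in N2 wild type, led by VCAM1 (-2.25), CCL20 (-1.84), BIRC3 (-1.75) and complement C3 (189 and 571 TPM, -1.70), and CXCL8 was within 2-fold. Both medians had the opposite sign between the knockout groups (1.75 and 1.76).

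Of 34 nuclear genes of oxidative phosphorylation, 31 were higher in N2 wild type and 1 in C16 wild type, beside 25.7% and 26.0% of all tested genes. The median was -0.54 by counts and -0.37 by TPM. Within 2-fold were 23 of the 34. That share was 84.98% for all tested genes at 10 to 100 CPM and 91.97% for those at 100 CPM or more. ATP5F1B, a catalytic subunit of ATP synthase, was at 904 and 1217 TPM (-0.53) and CYC1 at 228 and 396 TPM (-0.87). NDUFV2, the member counted higher in C16 wild type, had 217 and 243 TPM, against its count difference of 1.00. That call was lost without 4 of the 6 libraries in turn and under DESeq2 (adjusted p = 0.05439). Lysosome genes were higher in N2 wild type for 19 of 25 (median -0.57, but -0.057 between the knockout groups), with CTSH at 30.2 and 80.3 TPM (-1.59) and CTSB at 403 and 603 TPM. ER stress genes had a median of -0.28 and 26 of 30 within 2-fold, HSPA5 being at 475 and 543 TPM. The p53 target CDKN1A was at 49.3 and 118 TPM (-1.38), 1 of 4 genes of 22 in its list that were at least 2-fold higher in N2 wild type. Glycolysis genes were within 2-fold for 27 of 32, and 15 were higher in C16 wild type. The within 2-fold shares of the ER stress and glycolysis lists stood beside 84.98% of all tested genes at 10 to 100 CPM. GAPDH, ENO1 and PGAM1 matched closely, while the hypoxia genes CA9 (12.1 and 2.75 TPM, 1.98), MIR210HG (1.73) and PDK1 (0.97) were higher in C16 wild type. ERO1A (0.90) and HMOX1 (98.6 and 43.2 TPM, 1.11) were higher there as well. HMOX1 was the one member of the NRF2 list higher in C16 wild type, and 16 of 23 were higher in N2 wild type, 7 of them by 2-fold or more, with AKR1C3 (26.9 and 95 TPM, -1.99) and NQO1 (34.9 and 67.3 TPM, -1.18) among these.

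Lists for pathways addressed by the medium, and the Wnt list, are given by their counts. Within 2-fold were 62.9% of all tested genes and 84.98% of those at 10 to 100 CPM. By direction, 25.7% of all tested genes were higher in N2 and 26.0% in C16 wild type. Notch genes were within 2-fold for 13 of 19, HES1 (69.1 and 73.1 TPM) and DLL4 included, with MFNG (49.1 and 13.5 TPM, 1.77), DLL3 (1.14) and JAG2 (1.19) higher in C16 wild type. Of 23 TGF-beta and BMP genes 17 were within 2-fold, ID2 being at 333 and 318 TPM and SMAD7 at 2.01 and 1.76 TPM, and BMP4 (-1.42) and TGFBI (-1.58) were higher in N2 wild type. Metal handling genes, some of them read by zinc-sensing MTF1, were within 2-fold for 15 of 17. The exceptions were the metallothioneins MT1G (210, 254 and 222 TPM against 41.4, 42.6 and 73.5 TPM, 1.97) and MT1H (2.14). Thyroid hormone genes were higher in N2 wild type for 7 of 12, KLF9 at 9.97 and 15.2 TPM and DIO3 at 8.52 and 17.7 TPM. Of 22 tested cAMP targets, the genes that forskolin addresses, 12 were within 2-fold, 7 were higher in C16 and 5 in N2 wild type, with CREM (42.9 and 37.3 TPM) within 2-fold and PCK1 (2.82 and 11.3 TPM, -2.25) higher in N2 wild type. Wnt genes were within 2-fold for 15 of 22, and WNT5B (-1.74) was the largest difference among them.

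**Figure D4:**
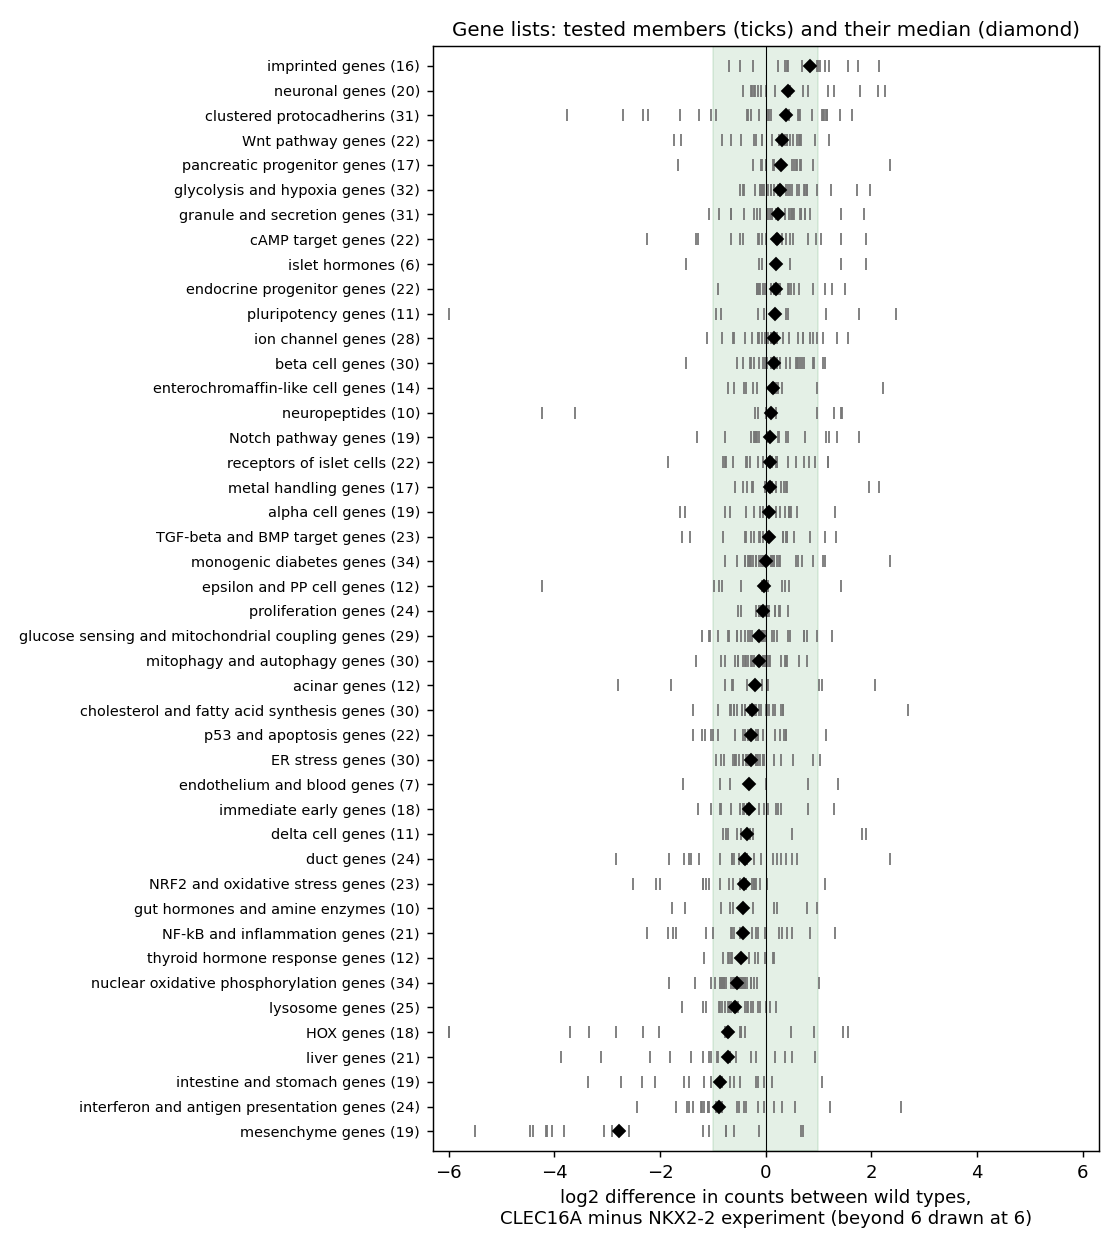
Log2 count difference (C16 minus N2 wild type) of the tested members of 44 gene lists, ticks for genes and diamonds for list medians, ordered by median, with the number tested in brackets. Shading marks 2-fold, and differences beyond 6 are drawn at 6. The mesenchyme median lies at -2.78, and the medians of the other lists lie inside the shaded range.

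Imprinted genes, expressed from one parental copy, included a large difference in an abundant transcript. IGF2, a fetal growth factor, was at 9343, 8238 and 9132 TPM in C16 wild type and at 2184, 3193 and 1681 TPM in N2 wild type, with a log2 difference of 1.21 (SE 0.238) by counts and 1.97 on the log2(TPM + 1) scale. Its counts were low for its TPM in both tables, at 0.078 and 0.118 of those of the median gene per TPM and kilobase, and without the count filter its edgeR adjusted p was 0.05869. DLK1 (343 and 130 TPM, 1.13), PEG10 (0.98), MAGEL2 (1.02) and L3MBTL1 (2.15) were higher in C16 wild type too, and 11 of 16 tested imprinted genes were, with 3 higher in N2 wild type, MEST among them (-0.69). Over all tested genes these shares were 26.0% and 25.7%. The median of the imprinted list was 0.836, but -0.035 between the knockout groups. PEG3 and NAP1L5 had no count in any of the 6 libraries. Of pluripotency genes, NANOG had no count and POU5F1 did not reach the filter. LIN28A, an RNA-binding protein of early embryonic cells, was at 26.0, 27.5 and 29.6 TPM against 5.39, 4.26 and 4.21 TPM (2.47), and TERT was also higher in C16 wild type (1.77), while SOX2 (11.2 and 11.5 TPM) and LIN28B were within 2-fold.

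Of HOX genes, which mark position along the body axis, 18 were tested. Of these, 11 were higher in N2 and 4 in C16 wild type, beside 25.7% and 26.0% of all tested genes. All 3 tested HOXC genes, HOXC4 (-3.71), HOXC6 and HOXC8, were at 0.403 TPM or less in C16 wild type, and HOXB9 (0.888 and 8.32 TPM, -3.34), HOXA7 (-2.83) and HOXA5 (-2.32) were lower there. HOXB4 (1.56) and HOXB3 (0.93) were higher in C16 wild type. Between the knockout groups the list median was -4.02, beside -0.72 between wild types. These genes moved in the direction of the mesenchyme list, and the part of mesenchyme in their difference was not tested. Clustered protocadherins, whose use varies between clones of cells, were within 2-fold for 9 of 31, with 7 at least 2-fold higher in each wild type. Their levels were low, with 10 genes of the list at 1 TPM or more in all 6 libraries. Within 2-fold were 62.9% of all tested genes, 42.74% of those at 1 to 10 CPM and 4.72% of those under 1 CPM. The part of clones was not tested. PCDHGA10 was at 0.789 and 8.70 TPM (-3.77).

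The genes with the largest differences higher in N2 wild type included genes read in that group and near 0 in the other. HOXC8 (chromosome 12, 54009106 to 54012362 in hg38) had 0 counts in the 3 C16 wild type libraries and 12.46, 12.68 and 13.71 CPM in N2 wild type, at least 136-fold higher against a floor of 3 counts per library. ZNF615, a zinc finger gene on chromosome 19, had 0 counts against 8.361, 7.583 and 7.946 CPM, at least 83.8-fold higher. LRRC61 on chromosome 7 had 5, 0 and 0 counts in C16 wild type and 27.56, 26.31 and 27.36 CPM in N2 wild type. ZBED6CL (150329789 to 150332721) lies inside LRRC61 (150322639 to 150338150) on the same strand, so reads of these genes can be shared, and it had 2, 8 and 0 counts against 21.2, 19.41 and 20.7 CPM. ANGPTL7 (0.374 and 41.6 TPM, -6.90) and the retinoid carrier CRABP1 (2.78 and 94.7 TPM, -5.70) were among the 10 largest as well.

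The knockout libraries separated some of these genes into 2 kinds. ANGPTL7 and CRABP1, at a mean of 0.4091 and 0.4105 CPM in C16 wild type, belonged to neither. LRRC61, ZBED6CL, ZNF615, ZFP42, CTHRC1 and 1 unnamed locus had a mean under 0.2 CPM in C16 wild type and 2 CPM or more in each of the 9 other libraries. ZNF615, for example, had 205, 253 and 215 counts in the CLEC16A knockout libraries of the same experiment, and LRRC61 had 1145, 1182 and 959. ZFP42, a stem cell zinc finger gene also known as REX1, had 0 counts in C16 wild type, 97, 72 and 59 in N2 wild type, and 261, 277 and 211 in the CLEC16A knockout. No gene was near 0 in N2 wild type alone by the same limits. Near 0 in the CLEC16A knockout alone were 5 genes, and in the NKX2-2 knockout alone 3. In addition 12 genes were near 0 in both CLEC16A groups and on in both NKX2-2 groups, among them HOXC8, HOXC6, VWC2, MEOX1, and OGN and COL6A6, which encode matrix proteins. By counts the reverse held for 14 genes, on in both CLEC16A groups only, MUC20, LY6G5B and ZNRD1ASP among them. Each kept some TPM in N2 wild type, as HLA-DMB (5.425 and 0.8723 TPM) and LY6G5B (11.05 and 0.6171 TPM), both with 0 counts there. Most of the 14, these 2 and ZNRD1ASP on chromosome 6 included, lie within 1 Mb of a gene short of counts. The part of such a shortfall in this set was not tested. ZNF875 had 1654 and 371 counts over the 3 libraries of the C16 and N2 wild types and 0 in all 6 knockout libraries. MYH14 had 0 counts in C16 wild type, 88, 117 and 78 in N2 wild type, and 0 in the NKX2-2 knockout.

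**Figure D5:**
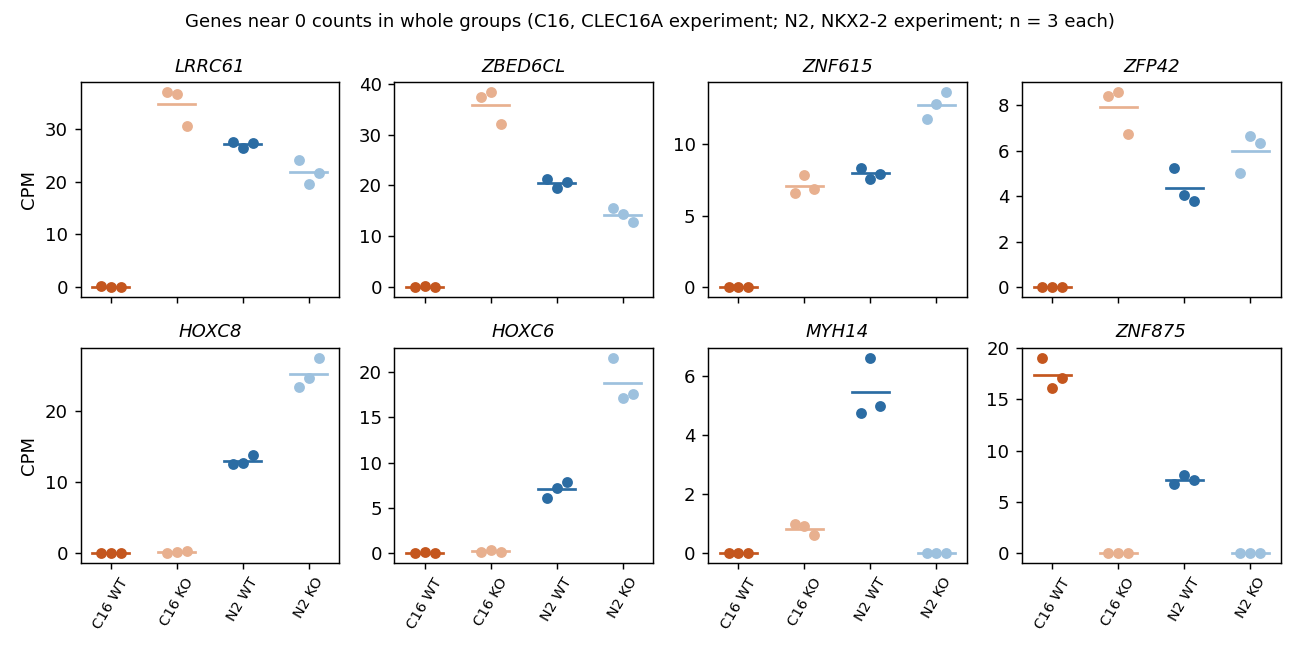
CPM of 8 genes in all 12 libraries, points for libraries and bars for group means (C16, CLEC16A experiment; N2, NKX2-2 experiment; WT, wild type; KO, knockout). LRRC61, ZBED6CL, ZNF615 and ZFP42 are near 0 in C16 wild type alone, HOXC8 and HOXC6 in both CLEC16A groups, and ZNF875 in both knockout groups.

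Promoter sequences are shown for a gene of each kind whose window holds little or no annotated exon, with CG, the letter pair that DNA methylation marks in mammals, picked out. Methylation was not measured. Each is the 250 bases before the RefSeq start on GRCh38.p14, and capitals mark CG. CG reads the same on both strands. The windows are chr19:52008212-52008461 on the minus strand for ZNF615, chr4:187995521-187995770 on the plus strand for ZFP42, and chr7:49773388-49773637 on the plus strand for VWC2.
ZNF615: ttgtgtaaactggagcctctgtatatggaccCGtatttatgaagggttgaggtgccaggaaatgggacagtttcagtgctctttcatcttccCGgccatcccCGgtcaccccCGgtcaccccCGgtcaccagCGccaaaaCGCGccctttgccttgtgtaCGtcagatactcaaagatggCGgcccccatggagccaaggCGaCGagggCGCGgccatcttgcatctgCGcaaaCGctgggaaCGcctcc
ZFP42: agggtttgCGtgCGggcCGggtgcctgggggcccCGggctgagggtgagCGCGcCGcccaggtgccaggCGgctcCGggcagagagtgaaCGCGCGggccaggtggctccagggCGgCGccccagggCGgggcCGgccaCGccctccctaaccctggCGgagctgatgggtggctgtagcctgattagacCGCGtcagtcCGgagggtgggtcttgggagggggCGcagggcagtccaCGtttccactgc
VWC2: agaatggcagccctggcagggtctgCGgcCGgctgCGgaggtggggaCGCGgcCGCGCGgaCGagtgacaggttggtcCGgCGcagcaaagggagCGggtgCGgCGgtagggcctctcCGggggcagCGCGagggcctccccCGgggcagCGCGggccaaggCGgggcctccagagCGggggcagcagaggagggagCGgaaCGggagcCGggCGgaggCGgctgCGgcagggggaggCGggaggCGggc
They hold 17, 23 and 30 CG, and 39.0%, 25.8% and 12.4% of 35116 such windows hold at least as many, with a median of 11. In the ZNF615 window 19 bases fall in an annotated exon. A CG count describes these letters and is no measure of methylation.

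Of the 10 genes with the largest differences higher in C16 wild type, MUC20 and NRN1 had an annotated position more than 1 Mb from any gene short of counts, and MBOAT7, TFPT, LY6G5B and AGER were among the others. Away from such genes by more than 1 Mb, a choice made after values were seen, the 10 largest included NRN1 (neuritin, 7.58 and 0.418 TPM, 4.13), PPFIA4 (16.6 and 1.37 TPM, 3.32), ANKRD1 (19.6 and 2.25 TPM, 2.99) and SNCB (beta-synuclein, 13.5 and 1.54 TPM, 2.84). All 4 were higher in the CLEC16A experiment between the knockout groups too, by 4.59, 2.74, 1.91 and 2.30. In the neuronal list 10 of 20 genes were higher in C16 wild type and 2 in N2 wild type (median 0.43, but -1.48 between the knockout groups), with GAD1 (5.94 and 1.07 TPM, 2.27), ELAVL3 (1.18) and RBFOX3 (1.79) among those at least 2-fold different, and STMN2 (470 and 504 TPM) and SYP (175 and 160 TPM) within 2-fold. Over all tested genes 26.0% were higher in C16 and 25.7% in N2 wild type.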

How the data were processed

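Gene-level counts and TPM of 6 wild type libraries were analysed, in 2 groups of 3. The counts are raw reads per gene as deposited by the authors, and the TPM values are those the authors deposited. The submitters' processing notes name fastp 0.22.0, HISAT2 2.2.1, StringTie 2.1.7 and the build hg38. For the counter, the annotation and the strand setting, nothing is stated by the labels or notes. The tables were joined by gene identifier (60624 genes), and 37 mitochondrial genes and 204 genes short of counts were left out. Counts were compared with edgeR 4.0.16 in R 4.3.3 (TMM scaling, filterByExpr, robust quasi-likelihood F test, Benjamini-Hochberg adjusted p under 0.05). Agreement was tested with 2 one-sided tests against a 2-fold margin. The members of the comparison and all gene lists were chosen with earlier results of these data known. Named genes were every hormone gene, the 3 most abundant, the 3 most different and the 3 in closest agreement of each list, the 15 most abundant genes of all, and the 10 largest differences in each direction, together with genes read in one group only. Others named were chosen after their values were seen. In simulated data with the real means and library sizes (18400 genes), 100 genes were changed 2-fold and 100 changed 4-fold, drawn only from better counted genes. Of these, 86% and 96% were recovered, and 8% of the 2-fold changes were placed within 2-fold. False calls made up 11.22%, and 89.7% of unchanged genes were placed within 2-fold. Far fewer genes were changed than the 51.6% called in the data, so the false share does not carry over to these calls. Alternatives were other scalings, filters, designs and libraries left out, and DESeq2 1.42.0. Some genes of the lists are not reported here by name.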

Additional observations from a re-analysis of the deposited data

How the results depend on the processing

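Counts of genes stayed within 1.5 times of those reported in 162 of 163 recomputed values, the exception being 6952 genes within a 1.5-fold margin in place of 2-fold. Leaving out 1 library in turn gave 8357 to 10053 genes past the test, 1913 to 2262 at least 2-fold higher in C16 and 1362 to 1398 in N2 wild type, 11115 to 11728 within 2-fold, and 15052 to 15224 at 1 TPM or more. With the replicate number as a block, 9465 genes were past the test. The numbers share no stated source, and deviations of same-numbered libraries correlated at 0.043, -0.012 and -0.014, so they were not treated as pairs. Medians changed sign in 7 lists, in 3 of them by more than the spread between libraries: endothelium and blood (0.028 with a stricter count filter), proliferation (0.013 with upper-quartile scaling) and receptors of islet cells (-0.048 without N2 wild type library 3, up to 0.151 without any other library, and -0.045 without the library farthest from its replicates in each group). In 24 of 44 lists 63 further medians kept their sign but moved by more than the spread between libraries, and 681 did not. Of 196 genes recomputed, 13 that were within 2-fold, INS and NEUROD1 among them, crossed 0 under at least 1 setting, and no other gene changed sign by counts. The TPM difference of 47 genes moved with a pseudocount of 0.1. The calls lost under at least 1 setting were those of CLEC16A, IGF2, KRT18, NDUFV2, NKX2-2, SLC18A1, SOX9, SPINK1, TFPT, HES1 and DDC, and IAPP, not called, was called under 4 settings. The cause was not tested. Depth limits agreement among thinly counted genes. Run, culture and cell line cannot be told apart.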
